A study of Mus musculus with 36 samples.

Results

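Farnesol given by gavage was compared with its corn oil vehicle in the brains of mice with experimental autoimmune encephalomyelitis (EAE). The comparison used 19 of the 36 libraries of the study: all 10 of the farnesol group against all 9 of the vehicle group, as the labels name them. Every mouse was a wild-type C57BL/6 animal in which EAE had been induced with the MOG35-55 peptide in complete Freund's adjuvant and pertussis toxin, and whole brains were taken at day 19, the peak of disease. The farnesol group was gavaged daily with 100 mg/kg of trans, trans-farnesol dissolved in corn oil, and the vehicle group received corn oil alone. The other 17 libraries, from 9 untreated EAE mice and 8 naive mice, entered the fits to estimate the spread. They also entered the choice of genes to test and the scaling. The labels number the replicates without saying that each is a separate animal, so p-values measure the spread between these samples. The labels used here state neither sex nor age.

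EAE is a model of multiple sclerosis in which T cells against myelin enter the brain and spinal cord, draw in monocytes and neutrophils, and activate microglia and astrocytes. Farnesol is an isoprenoid alcohol. Its diphosphate is made from mevalonate and stands at the branch that leads to cholesterol, to ubiquinone and to the lipid groups that anchor many proteins in membranes. Farnesol itself is known to act on nuclear receptors such as FXR and PPAR alpha in cultured cells.

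The farnesol libraries were not alike in their ribosomal RNA content. CT010467.1, the annotated ribosomal RNA gene at chr17:39846353-39848827 (GRCm38, minus strand), measured 1613, 2430 and 2031 CPM (read counts scaled to a common library size) in farnesol replicates 1 to 3. It measured 5091 to 17689 CPM in farnesol replicates 4 to 10 (median 12395) and 1284 to 2784 CPM in the vehicle libraries (median 1754). Farnesol replicates 1 to 3 thus lay within the vehicle range and replicates 4 to 10 wholly above it. CT010467.1 also differed between the other groups, with 1309 to 2553 CPM in untreated EAE and 7464 to 10707 CPM in naive libraries. All results are therefore given for the 10 farnesol libraries and also for replicates 1 to 3 and 4 to 10 apart. In replicates 4 to 10, ribosomal RNA content and farnesol cannot be told apart, and the labels name no batch.

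Total counts were 15.4 to 23.6 M in farnesol libraries and 19.2 to 22.1 M in vehicle libraries. The neuronal gene Syn1, the myelin gene Mbp and the astrocyte gene Gfap were detected in every library, as whole brain should show. Farnesol replicate 2 was low in genes of the cerebellum, with 0.991 CPM of the Purkinje cell gene Pcp2, where vehicle libraries held 42.0 to 63.1 CPM. Sbp, a gene of the prostate, was above 1 CPM in 0 of 10 farnesol and 3 of 9 vehicle libraries. It was also above 1 CPM in 5 untreated libraries, and fits without the libraries holding Sbp left these out as well. Fits without the libraries low in cerebellar genes left out farnesol replicate 2, 1 untreated library and 1 naive library. Vehicle replicate 8 held 435 CPM of the pituitary hormone gene Gh, and all other libraries of the comparison held at most 7.11 CPM.

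Of the 17 genes that passed the test, 3 were annotated small RNAs that share a sequence. They are printed here because reads from any of them can be assigned to another. Each is 57 bases long in the GENCODE M21 transcripts (GRCm38) and is annotated there as a microRNA gene. Whether a mature microRNA is made from any of them was not tested. Capitals mark position 11, counted from the 5′ end.
Gm23935, chr16:11144125-11144181, plus strand: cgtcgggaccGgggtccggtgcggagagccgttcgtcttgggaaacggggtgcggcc
Gm24270, chr9:56223715-56223771, minus strand: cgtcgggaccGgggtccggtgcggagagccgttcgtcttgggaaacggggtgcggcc
Gm24187, chr13:9834469-9834525, minus strand: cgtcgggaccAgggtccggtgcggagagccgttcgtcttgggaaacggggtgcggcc
Gm23935 and Gm24270 were identical, and Gm24187 differed from them by the single substitution G11A (98.2% identity). Gm23935 lies within the gene Zc3h7a on the opposite strand and Gm24270 within Peak1 on the same strand. Another locus, Gm24245, which was not tested, shares 100% of the 25-base words of Gm23935. The values of the 3 loci below are therefore uncertain and not independent of each other.

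Across all 10 farnesol libraries, few genes differed from vehicle, and most of those were RNAs other than mRNA. With edgeR's quasi-likelihood test and Benjamini-Hochberg adjustment over 18438 genes, 17 genes had an adjusted p below 0.05, which is 0.0922% of those tested. Of these, 15 rose (0.0814%) and 2 fell (0.0108%). They comprised 5 ribosomal or small RNAs (5.38% of the 93 tested), 5 long noncoding RNAs (0.256% of 1951), 1 locus annotated as awaiting experimental evidence (0.168% of 595) and 6 protein-coding genes (0.0392% of 15322). The coding genes that rose were Lars2, mt-Atp6, Slc6a6 and Muc6, and those that fell were Nfil3 and Plat. In none of the 17 did the farnesol and vehicle libraries separate completely, and 1 of all genes tested (0.00542%) did. At an unadjusted p below 0.05 there were 1031 genes (5.59%), 640 higher (3.47%) and 391 lower (2.12%).

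The count of 17 changed with the libraries, the covariate and the tool used. When the fit held only the 19 libraries compared, 0 genes passed, with 1092 at an unadjusted p below 0.05, and the same 17 genes had adjusted p from 0.0553 (CT010467.1, Rn7sk, Lars2, Gm23935, Malat1, Kcnq1ot1 and D830024N08Rik) to 0.205 (Gm37352 and Slc6a6). With the log2 CPM of CT010467.1 as a covariate, 0 genes passed, with 1962 at an unadjusted p below 0.05. DESeq2 called 42 genes, all 17 among them, and 7 were called without the libraries holding Sbp. Leaving out 1 library gave 8 to 35 calls, with 35 without farnesol replicate 3, 8 to 10 without farnesol replicate 4, 6, 8 or 10, and 8 to 11 without vehicle replicate 2, 3, 4, 5, 8 or 9.

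The farnesol subsets were each compared with vehicle and with each other. Against the same vehicle libraries, replicates 4 to 10 gave 75 calls (0.407% of genes tested), 69 higher (0.374%) and 6 lower (0.0325%). At an unadjusted p below 0.05 there were 1240 genes (6.73%), 743 higher (4.03%) and 497 lower (2.7%). Replicates 1 to 3 gave 1 call (0.00542%), with 2049 genes (11.1%) at an unadjusted p below 0.05, 901 higher (4.89%) and 1148 lower (6.23%). DESeq2 called 78 genes in replicates 1 to 3, of which 19 were higher and 59 lower. Of the 17 genes, 15 were also called in replicates 4 to 10 and 0 in replicates 1 to 3. In 5 of the 17 all of replicates 1 to 3 lay outside the vehicle range, as 2.84% of all genes did (1.15% above and 1.69% below). Since the 17 were called in a fit that held these libraries, and both subsets were set against the same 9 vehicle libraries, these counts are not independent. Set directly against each other, replicates 4 to 10 and 1 to 3 differed in 73 genes (0.396%), 38 higher (0.206%) and 35 lower (0.19%) in replicates 4 to 10, of which 6 were among the 17, and the other 11 did not pass that test. Without the libraries holding Sbp the counts were 38 for replicates 4 to 10, 5 for replicates 1 to 3 and 123 between the subsets, and without those low in cerebellar genes they were 84, 0 and 8. Leaving out farnesol replicate 1, 2, 3, 6, 7 or 10 reduced the 73 to 28, 9, 14, 27, 25 or 23. The subsets were defined by ribosomal RNA content, so differences in RNAs that move with it are a description of that division.

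**Figure D1:**
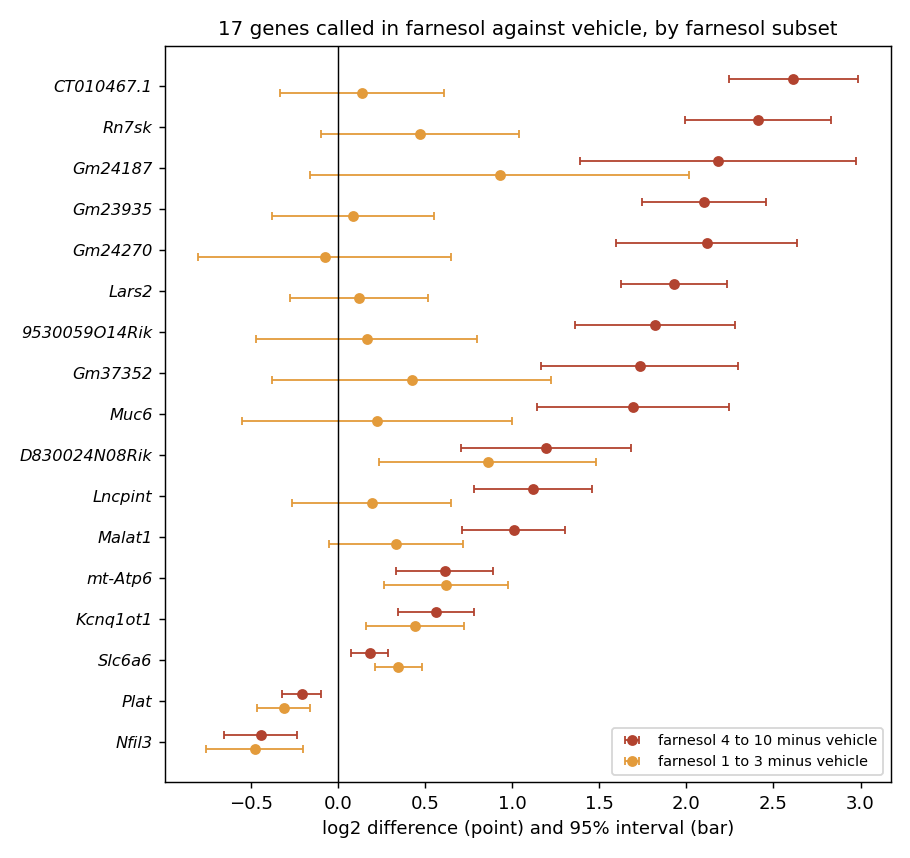
Log2 difference from vehicle (x axis) of each of the 17 genes called across all farnesol libraries (rows), for farnesol replicates 4 to 10 (n = 7, upper point) and 1 to 3 (n = 3, lower point) against 9 vehicle libraries. Bars are 95% intervals of the quasi-likelihood fit. CT010467.1 stood at 2.61 in replicates 4 to 10 and 0.14 in replicates 1 to 3, whereas Nfil3 stood at -0.44 and -0.48.

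Several small and nuclear RNAs were among the called genes with larger differences in replicates 4 to 10. The medians of their classes did not share this. The median log2 difference of replicates 4 to 10 minus 1 to 3 was -0.16 over all 93 ribosomal or small RNAs. Of these 93, 5 were called higher and 0 lower between the subsets (5.38%, against 0.396% of all genes). Among the 5 were CT010467.1, by whose level the subsets were divided, and the identical copies Gm23935 and Gm24270. The 5.38% therefore cannot be set against the share of all genes. The list of 12 nuclear long noncoding RNAs was counted at an unadjusted p below 0.05. In replicates 4 to 10, 2 were higher (4.03% of all genes, list median 0.02), and in replicates 1 to 3, 5 were (4.89%, median 0.28). Rn7sk (chr9:78175303-78175633) encodes 7SK, the small nuclear RNA that holds the elongation factor P-TEFb in an inactive complex. It measured 1.90, 3.81 and 4.94 CPM in farnesol replicates 1 to 3, 8.27 to 22.5 CPM in replicates 4 to 10 (median 13.9) and 1.43 to 4.01 CPM in vehicle libraries (median 2.495). Replicates 4 to 10 lay above every vehicle library, and replicates 1 to 3 overlapped them. Its log2 difference over all farnesol libraries was 2.05 ± 0.28 (SE, n = 10 and 9; edgeR adjusted p = 0.000107), with 0.47 ± 0.28 in replicates 1 to 3 (adjusted p = 0.538). Rn7sk shares 70.7% of its 25-base words with the annotated copy Gm24447, so its count is uncertain.

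Gm23935 measured 276, 443 and 404 CPM in farnesol replicates 1 to 3, 1024 to 1958 CPM in replicates 4 to 10 and 213 to 520 CPM in vehicle libraries. The same division between the farnesol subsets was seen as in Rn7sk. Over all farnesol libraries its log2 difference was 1.73 ± 0.26 (adjusted p = 0.000366), that of its identical copy Gm24270 was 1.73 ± 0.33 (adjusted p = 0.0122), and that of Gm24187 was 1.89 ± 0.39 (adjusted p = 0.0332). CT010467.1 itself stood 2.21 ± 0.30 higher (adjusted p = 0.000107), and it overlaps the loci Gm42418 and AY036118, with which it shares 71.1% and 36.5% of its words. With the log2 CPM of CT010467.1 as a covariate, the difference became 0.00 (Gm23935) and -0.22 (Gm24270), against 0.50 for Rn7sk.

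Lars2, which encodes the mitochondrial leucyl-tRNA synthetase, was the protein-coding gene with the smallest p. It measured 141, 227 and 234 CPM in farnesol replicates 1 to 3. In replicates 4 to 10 it measured 792, 535, 658, 585, 905, 517 and 921 CPM, and in vehicle libraries 122 to 262 CPM (median 185). All of replicates 4 to 10 exceeded every vehicle library, and all of replicates 1 to 3 fell within the vehicle range. The log2 difference was 1.58 ± 0.23 over all farnesol libraries (adjusted p = 0.000249) and 0.12 in replicates 1 to 3 (95% interval -0.27 to 0.52). Naive libraries held 361 to 479 CPM of Lars2, and untreated EAE libraries held 126 to 233 CPM. Naive libraries also had high ribosomal RNA, but they differ from the EAE libraries in disease too. The part of either was not tested. With the log2 CPM of CT010467.1 as a covariate, Lars2 did not pass the test, as 0 genes did. Its 25-base words were compared with those of annotated transcripts only (at most 0.395% shared with another gene). Whether reads of other ribosomal sequence were assigned to Lars2 was not tested.

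Malat1, a long noncoding RNA of nuclear speckles, measured 1129, 1205 and 1043 CPM in farnesol replicates 1 to 3, 1237 to 2529 CPM in replicates 4 to 10 and 628 to 1110 CPM in vehicle libraries. Replicates 4 to 10 again lay above all vehicle libraries, and only farnesol replicate 3 among the 10 fell below the highest vehicle library. Its log2 difference was 0.84 ± 0.15 (adjusted p = 0.00999), with 1.01 in replicates 4 to 10 and 0.33 in replicates 1 to 3, a difference between subsets that did not pass the test (adjusted p = 0.125). Naive libraries held 864 to 1069 CPM of Malat1. Lncpint, a long noncoding RNA induced by p53, stood 0.89 ± 0.18 higher (adjusted p = 0.0312), with 1.12 in replicates 4 to 10 and 0.19 in replicates 1 to 3. Muc6, a gel-forming mucin known from the stomach, was low in all groups, at 0.428 to 3.38 CPM in farnesol and 0.398 to 0.953 CPM in vehicle libraries, and stood 1.38 ± 0.30 higher (adjusted p = 0.0487). The uncharacterised 9530059O14Rik and Gm37352 stood 1.49 ± 0.27 and 1.43 ± 0.30 higher (adjusted p = 0.0107 and 0.0332), and their differences in replicates 1 to 3 were 0.16 and 0.42.

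**Figure D2:**
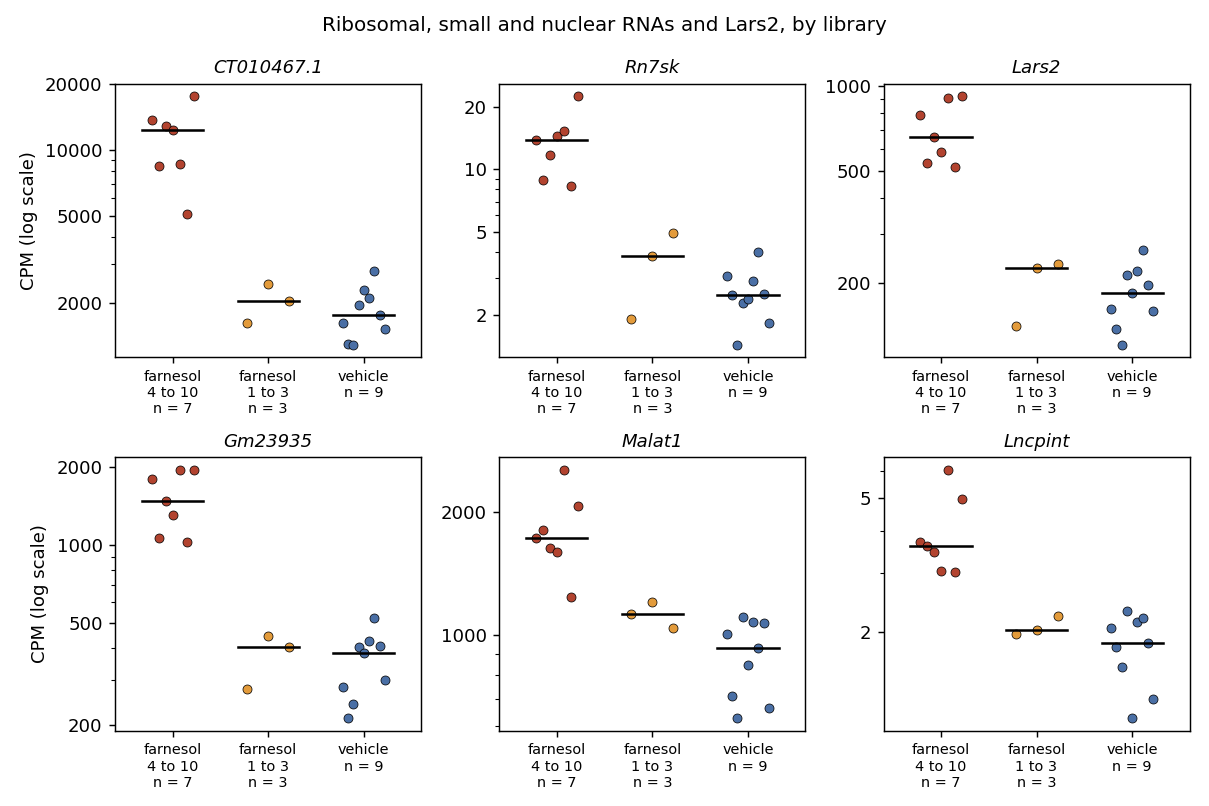
CPM (y axis, log scale) of CT010467.1, Rn7sk, Lars2, Gm23935, Malat1 and Lncpint in farnesol replicates 4 to 10, farnesol replicates 1 to 3 and vehicle libraries. Each point is 1 library and each line a group median. In each of the 6 panels all points of replicates 4 to 10 lie above all vehicle points, while at least 1 point of replicates 1 to 3 lies among the vehicle points.

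Of the called genes, Nfil3, Plat, Slc6a6, Kcnq1ot1, mt-Atp6 and D830024N08Rik had 95% intervals on the same side of 0 in both farnesol subsets. The test between the subsets was passed by 0 of these 6, with adjusted p of 0.263 (Slc6a6) to 0.988 (mt-Atp6). Since the 6 are grouped by their likeness in both subsets, this does not set them apart. Other called genes, Malat1 among them, did not pass that test either. Nfil3 (chr13:52967209-52981073), a transcriptional repressor of the circadian output pathway that is also needed for innate lymphoid cells, fell. It measured 10.4, 8.24 and 9.65 CPM in farnesol replicates 1 to 3 and 7.83 to 11.2 CPM in replicates 4 to 10 (median 10.1), against 11.2 to 16.2 CPM in vehicle libraries (median 12.4). Farnesol replicate 5, at 11.21 CPM, and vehicle replicate 4, at 11.19 CPM, were the only libraries of the 19 to cross. The log2 difference was -0.45 ± 0.09 over all farnesol libraries (adjusted p = 0.0289), -0.48 ± 0.14 in replicates 1 to 3 (adjusted p = 0.175) and -0.44 ± 0.10 in replicates 4 to 10 (adjusted p = 0.0343). The subsets did not differ detectably from each other (0.03, 95% interval -0.25 to 0.32). Untreated EAE libraries held 10.5 to 16.6 CPM and naive libraries 10.7 to 15.7 CPM. Leaving out vehicle replicate 2, 7 or 8 or farnesol replicate 6 or 8 ended the call, with adjusted p of at most 0.077. Of the 15 clock output genes tested, Nfil3 was the only one called (median log2 of the list 0.04). Arntl (Bmal1), the core activator of the clock, stood at -0.09 ± 0.06 (adjusted p = 0.992), and Dbp, which activates the elements that Nfil3 represses, at 0.16 ± 0.09 (adjusted p = 0.946).

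Plat encodes tissue plasminogen activator, a protease of fibrinolysis that neurons and endothelium also release. It measured 30.57, 29.98 and 30.42 CPM in farnesol replicates 1 to 3 and 29.3 to 36.03 CPM in replicates 4 to 10, against 34.0 to 42.9 CPM in vehicle libraries. Replicates 1 to 3 lay below every vehicle library, and farnesol replicate 5 was the only one of the 10 above the lowest vehicle library. Plat stood at -0.24 ± 0.05 over all farnesol libraries (adjusted p = 0.0477), -0.31 ± 0.07 in replicates 1 to 3 (adjusted p = 0.136) and -0.21 ± 0.06 in replicates 4 to 10 (adjusted p = 0.109). The call held in 2 of 19 fits that left out 1 library each.

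Slc6a6, the taurine transporter, rose slightly. It measured 195, 174 and 147 CPM in farnesol replicates 1 to 3 and 140 to 163 CPM in replicates 4 to 10, against 121 to 152 CPM in vehicle libraries. The groups overlapped, and the 2 highest values were those of farnesol replicates 1 and 2. Its log2 difference was 0.23 ± 0.05 (adjusted p = 0.0467), with 0.35 ± 0.07 in replicates 1 to 3 (adjusted p = 0.0508) and 0.18 ± 0.05 in replicates 4 to 10 (adjusted p = 0.158). The call held in 5 of 19 fits that left out 1 library each.

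Kcnq1ot1, the long antisense RNA that silences genes of the Kcnq1 imprinted domain, measured 34.2, 37.8 and 33.8 CPM in farnesol replicates 1 to 3 and 30.4 to 47.3 CPM in replicates 4 to 10, against 18.7 to 32.8 CPM in vehicle libraries. Replicates 1 to 3 lay above every vehicle library. The log2 difference was 0.53 ± 0.10 (adjusted p = 0.0122), with 0.44 in replicates 1 to 3 and 0.56 in replicates 4 to 10, and the call held in all 19 fits that left out 1 library each. It was lost without the libraries holding Sbp (0.51, adjusted p = 0.138), with only the libraries compared (adjusted p = 0.0553), with the replicate block (adjusted p = 0.103) and with CT010467.1 as a covariate (0.35, adjusted p = 0.357). Naive libraries held 20.7 to 25.9 CPM. D830024N08Rik, an uncharacterised RNA antisense to Tecr, stood 1.10 ± 0.22 higher (adjusted p = 0.0289), with 1.19 in replicates 4 to 10 and 0.86 in replicates 1 to 3, and lost its call under the same 4 settings, without a filter (adjusted p = 0.0535) and in 10 of 19 fits that left out 1 library. Whether counting used strand is not stated, so reads of Kcnq1ot1 and Kcnq1, or of D830024N08Rik and Tecr, cannot be told apart.

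The mitochondrial gene mt-Atp6 encodes a subunit of the proton channel of ATP synthase. It measured 32.3, 42.7 and 40.7 CPM in farnesol replicates 1 to 3 and 29.5 to 65.7 CPM in replicates 4 to 10 (median 34.6), against 17.8 to 33.4 CPM in vehicle libraries (median 23.4). The highest value, in farnesol replicate 9, stood apart from the rest of its group. The log2 difference was 0.62 ± 0.12 (adjusted p = 0.0289), and it was 0.62 in replicates 1 to 3 and 0.61 in replicates 4 to 10. mt-Atp6 shares 99.5% of its 25-base words with the nuclear pseudogene Gm10925, whose log2 difference was 0.53 ± 0.16 (adjusted p = 0.316), so its reads may be split or lost. The other 12 mitochondrial transcripts tested were not called, and the list median was 0.06. Leaving out vehicle replicate 2, 3, 4 or 5 or farnesol replicate 6 ended the call of mt-Atp6, as did leaving out the libraries holding Sbp (0.50, adjusted p = 0.326).

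**Figure D3:**
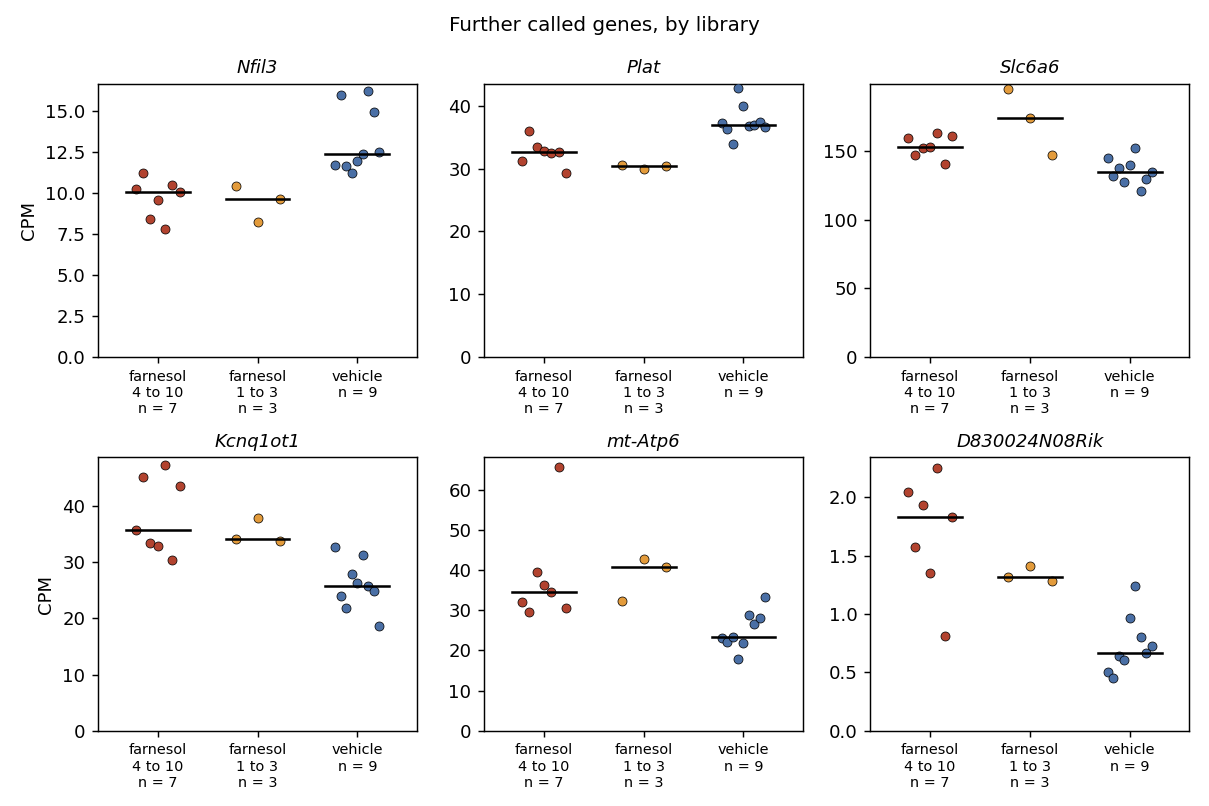
CPM (y axis, linear from 0) of Nfil3, Plat, Slc6a6, Kcnq1ot1, mt-Atp6 and D830024N08Rik in farnesol replicates 4 to 10, farnesol replicates 1 to 3 and vehicle libraries. Each point is 1 library and each line a group median. Both farnesol medians lie on the same side of the vehicle median in every panel, below it for Nfil3 and Plat and above it for the others.

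In farnesol replicates 1 to 3 alone, the gene that passed the test was Pdzd2, which encodes a scaffold protein with several PDZ domains. It measured 114, 110 and 77.2 CPM in these replicates, against 54.2 to 78.9 CPM in vehicle libraries (median 66.1), and 56.3 to 70.1 CPM in replicates 4 to 10. Replicates 1 and 2 exceeded every vehicle library, and replicate 3 did not. The log2 difference was 0.62 ± 0.11 in replicates 1 to 3 (adjusted p = 0.0168) and -0.07 ± 0.08 in replicates 4 to 10 (adjusted p = 0.976). The subsets differed from each other by -0.69 ± 0.11, replicates 4 to 10 minus 1 to 3 (adjusted p = 0.000787). Pdzd2 was not called without farnesol replicate 1 or 2 (adjusted p of at most 0.26). Nor was it with limma-voom (adjusted p = 0.0723), only the libraries compared (0.0958), the replicate block (0.397) or 1 surrogate variable (0.269). The same subset was low in cerebellar genes, with 9 of 15 lower at an unadjusted p below 0.05 (6.23% of all genes) and summed levels of 1943, 383 and 1369 CPM, against 1954 to 2791 CPM in vehicle libraries. Whether the share of cerebellum in these samples bears on Pdzd2 was not tested.

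Among the 75 genes called in replicates 4 to 10, 30 had all 7 libraries above or below all 9 vehicle libraries (0.228% of all genes did, 0.217% above and 0.0108% below). The calls comprised 8 ribosomal or small RNAs (8.6% of the 93 tested) and 14 long noncoding RNAs (0.718% of 1951). The others were 17 loci awaiting experimental evidence (2.86% of 595) and 36 coding genes (0.235% of 15322). Srrm3os, an antisense RNA, rose by 1.33 ± 0.30 (adjusted p = 0.0272), and its difference in replicates 1 to 3 was 0.92 ± 0.38 (adjusted p = 0.357). Apold1, an early response gene of endothelium, measured 4.09 to 6.07 CPM in replicates 4 to 10, against 5.59 to 14.9 CPM in vehicle libraries, and fell by 1.00 on the log2 scale (SE 0.21, adjusted p = 0.0136). Rbm28, a nucleolar RNA-binding protein, stood at -0.24 ± 0.05 (adjusted p = 0.0337) and Sfpq, a splicing factor of paraspeckles, at -0.24 ± 0.05 (adjusted p = 0.0146). In replicates 1 to 3 the same genes stood at 0.13 and 0.08. Cenpv, a centromere protein, stood at -0.30 ± 0.07 (adjusted p = 0.0286). Leaving out farnesol replicate 8 or 10 reduced the 75 calls to 41 or 43.

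Genes of the isoprenoid pathway to which farnesol belongs showed small differences from vehicle, none of which passed the test. Over all farnesol libraries 0.0922% of all genes passed it, so a list without a call is not a result about that list. Of 25 genes of mevalonate and cholesterol synthesis, 0 were called in any of the 3 comparisons with vehicle. Over all farnesol libraries 4 of them were lower at an unadjusted p below 0.05 (2.12% of all genes were) and the median log2 difference was -0.06, against -0.003 over all genes. Cyp51, which removes a methyl group from lanosterol, stood at -0.15 ± 0.06 (adjusted p = 0.664). Fdps, which makes farnesyl diphosphate, stood at 0.27 (95% interval -0.24 to 0.79), Fdft1, which joins farnesyl diphosphate units into squalene, at -0.04 (-0.14 to 0.06) and Fntb, a subunit of protein farnesyltransferase, at -0.07 (-0.16 to 0.03). Fdps was measured at 0.413 to 2.87 CPM in farnesol and 0.902 to 1.502 CPM in vehicle libraries, and it shares 25% of its words with the locus Gm43738.

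In replicates 1 to 3, 12 of the same 25 genes were lower at an unadjusted p below 0.05 (6.23% of all genes were) and 0 were called, with 22 negative and 3 positive and a median of -0.18 (-0.02 in replicates 4 to 10). Among them were Stard4 (-0.39) and Insig1 (-0.36), targets of the sterol-regulated factor SREBP2 that were named after their values were seen, each with an adjusted p of 0.136. Between the subsets, 10 of the 25 were higher and 0 lower in replicates 4 to 10 at an unadjusted p below 0.05 (14.6% of all genes, 7.35% higher and 7.25% lower). Insig1 stood higher in replicates 4 to 10 than in replicates 1 to 3 (0.41 ± 0.09, adjusted p = 0.0396). The summed level of the 25 genes was 1094, 1382 and 1349 CPM in replicates 1 to 3, 1306 to 1468 CPM in replicates 4 to 10 and 1256 to 1520 CPM in vehicle libraries. Only farnesol replicate 1 fell below the vehicle range. Without farnesol replicate 1 the count was 5 of 25 (7.08% of all genes, list median -0.09). Without replicate 2, the library low in cerebellar genes, it was 13 (3.5% of all genes). Of 18 genes of the farnesyl and geranylgeranyl branch 0 were called, with a median of -0.01 over all farnesol libraries.

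Receptors and targets that farnesol is known to act on were likewise not called (0.0922% of all genes were over all farnesol libraries). Nr1h4, which encodes FXR, was too low to test, with at most 4 counts in a farnesol library and 7 in a vehicle library. Ppara stood at 0.10 (95% interval -0.18 to 0.37) and Ppargc1a, the coactivator of mitochondrial biogenesis, at -0.01 (-0.12 to 0.11), with 54.0 to 75.7 CPM in farnesol and 52.2 to 72.1 CPM in vehicle libraries. Of 22 PPAR and fatty acid oxidation targets, 4 were lower at an unadjusted p below 0.05 (2.12% of all genes, list median -0.04), led by Pdk4, an inhibitor of pyruvate oxidation, at -0.40 ± 0.12 (adjusted p = 0.312). Of 12 tested genes of the LXR, FXR and cholesterol efflux list, 1 was higher (3.47% of all genes) and 1 lower (2.12%) at that threshold.

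Immediate early and glucocorticoid response genes had negative list medians in both subsets. Of 17 neuronal immediate early genes, which are switched on within minutes of synaptic activity, 8 were lower at an unadjusted p below 0.05 (2.12% of all genes were), 0 were called, and all 17 had negative log2 differences (median -0.32). Fos measured 12.6 to 33.0 CPM in farnesol (median 17.3) and 12.98 to 53.4 CPM in vehicle libraries (median 35.4), a difference of -0.70 ± 0.23 (adjusted p = 0.444). In replicates 4 to 10 the median was -0.31 with 7 of 17 lower at that threshold (2.7% of all genes), and in replicates 1 to 3 it was -0.29 with 3 of 17 (6.23%). Vehicle libraries varied widely in these genes, with summed levels of 569 to 1383 CPM, against 664 to 912 CPM in farnesol libraries, so the groups overlapped. Without vehicle replicate 8, the library with Gh, 3 of 17 were lower at that threshold (2.09% of all genes, list median -0.22), without farnesol replicate 3 there were 4 (2.41%), and without the libraries holding Sbp there were 13 (1.91%, list median -0.42). Of 18 glucocorticoid response genes 8 were lower at that threshold (2.12% of all genes) and 0 were called (median -0.24), with 8 in replicates 4 to 10 (2.7%) and 1 in replicates 1 to 3 (6.23%). Among them were Ddit4 at -0.44 ± 0.13 (adjusted p = 0.296) and Nfkbia, the inhibitor of NF-kappaB, at -0.33 ± 0.11 (adjusted p = 0.468). The median of 21 heat shock and unfolded protein response genes was negative in replicates 4 to 10 but not in replicates 1 to 3. In replicates 4 to 10, 9 were lower at that threshold (2.7% of all genes) and 19 were negative (median -0.13). In replicates 1 to 3, 0 were lower (6.23%) and 10 were negative (median 0.02). Over all farnesol libraries 2 were lower (2.12%), 18 were negative and the median was -0.08. The 13 NRF2 antioxidant genes had medians of 0.009 in replicates 4 to 10 and 0.04 in replicates 1 to 3.

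No gene of the immune lists passed the test against vehicle, which 0.0922% of all genes passed over all farnesol libraries. The medians of the MHC class II, T cell and interferon lists were negative in replicates 4 to 10 and positive in replicates 1 to 3, whereas that of 8 T cell cytokines and master regulators was negative in both (-0.23 and -0.04). Cd74, a chaperone of MHC class II molecules and a marker of infiltrated and activated antigen-presenting cells, measured 209, 26.8 and 557 CPM in farnesol replicates 1 to 3, 28.2 to 182 CPM in replicates 4 to 10 and 17.04 to 935 CPM in vehicle libraries (median 67.1). The lowest and highest values of the comparison were both vehicle libraries. Its log2 difference was -0.51 over all farnesol libraries (95% interval -1.69 to 0.67), 0.43 in replicates 1 to 3 and -1.24 in replicates 4 to 10 (adjusted p = 0.760). For 10 MHC class II genes the medians were -0.35, 0.39 and -0.94 in that order, for 16 T cell genes -0.08, 0.47 and -0.36, and for 22 interferon-induced genes -0.23, 0.32 and -0.58, with 0 called in each. Single libraries turned these signs. Without vehicle replicate 4 the MHC class II median was 0.35 over all farnesol libraries and 1.12 in replicates 1 to 3, and without farnesol replicate 3 it was -0.90 and -0.67. In whole brain, fewer cells of a type and less RNA per cell cannot be told apart.

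**Figure D4:**
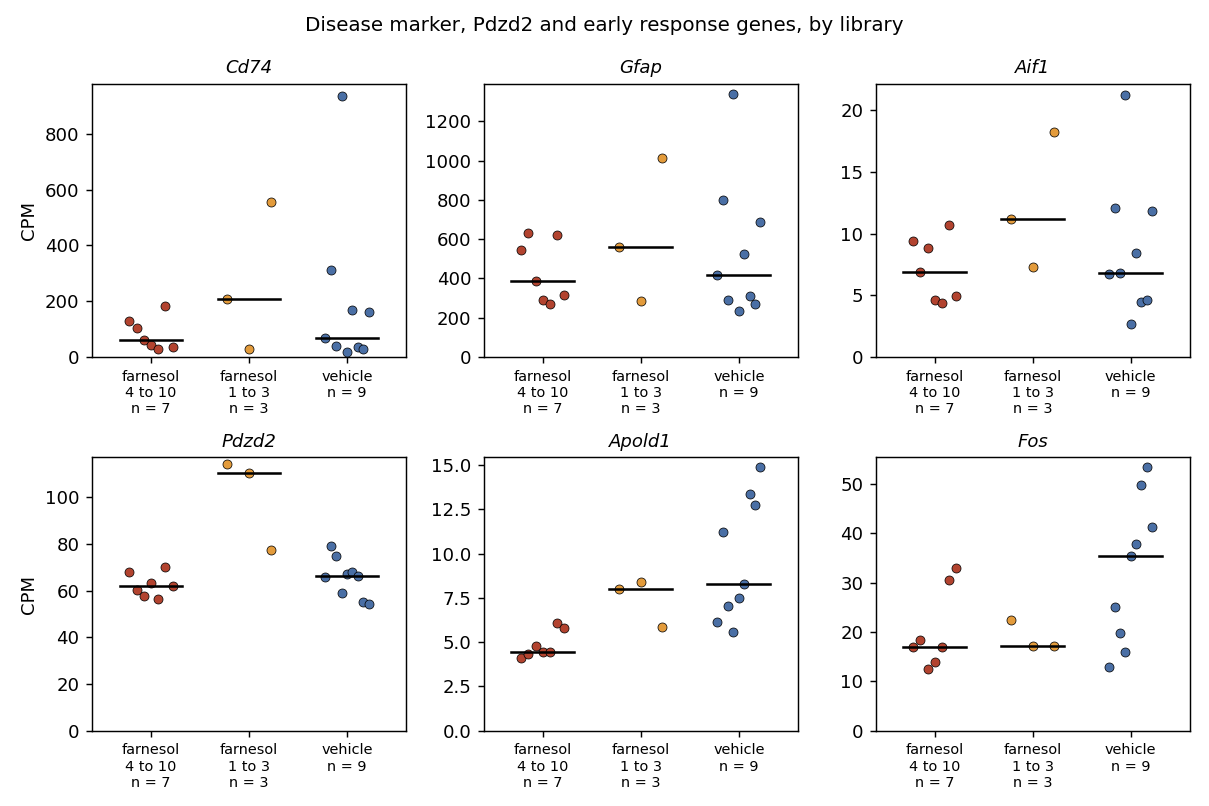
CPM (y axis, linear from 0) of Cd74, Gfap, Aif1, Pdzd2, Apold1 and Fos in farnesol replicates 4 to 10, farnesol replicates 1 to 3 and vehicle libraries. Each point is 1 library and each line a group median. For Cd74, Gfap and Aif1 the highest point is a vehicle library and farnesol replicate 3 is the highest farnesol library.

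Foxp3, the master regulator of regulatory T cells, had the smallest p of the T cell genes. It measured 1.61, 0.834 and 1.76 CPM in farnesol replicates 1 to 3, 0.847 to 1.39 CPM in replicates 4 to 10 and 0.355 to 1.01 CPM in vehicle libraries (median 0.602). Of the 10 farnesol libraries 8 lay above the highest vehicle library, and the log2 difference was 0.94 ± 0.24, which did not pass the test (adjusted p = 0.150). Of the other T cell genes, Cd3e, a chain of the T cell receptor complex, stood at -0.23 (95% interval -1.07 to 0.62) and Trac, the receptor's alpha constant gene, at -0.45 (-1.03 to 0.13). The cytokine genes Ifng, Il17a and Il10 were too low to test, with at most 3, 1 and 2 counts in a farnesol library and 4, 4 and 6 in a vehicle library. Il1b stood at -0.48 (-1.36 to 0.40) and Tnf at -0.45 (-1.63 to 0.73). Among neutrophil genes S100a9 stood at -0.23 (-0.73 to 0.26), and 0 of 14 were called.

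The glial, neuronal and vascular lists held no called gene (0.0922% of all genes were called over all farnesol libraries). Gfap, the filament of reactive astrocytes, measured 559, 284 and 1015 CPM in farnesol replicates 1 to 3 and 270 to 632 CPM in replicates 4 to 10, against 234 to 1337 CPM in vehicle libraries, a log2 difference of -0.14 over all farnesol libraries (95% interval -0.67 to 0.40). Lcn2, an acute phase protein of reactive astrocytes, stood at -0.07 (-0.50 to 0.36). Of 20 reactive astrocyte genes, 0 had an unadjusted p below 0.05, against 5.59% of all genes, a share at which a list of this size can hold none. The microglial gene Aif1 stood at -0.01 (-0.61 to 0.60) and the homeostatic microglial receptor P2ry12 at 0.12 (-0.16 to 0.40). The median of 12 homeostatic microglia genes was 0.31 in replicates 1 to 3 and -0.09 in replicates 4 to 10. That of 16 activated microglia genes was 0.23 and -0.20. Mbp, a main protein of compact myelin, stood at 0.02 (-0.16 to 0.19), the synaptic gene Syn1 at -0.03 (-0.16 to 0.09) and Cldn5, a tight junction gene of the blood-brain barrier, at 0.05 (-0.18 to 0.28). Of the 39 lists, those of clock output, mitochondrial transcripts and nuclear long noncoding RNAs held the called genes. Slc1a2, the main glutamate transporter of astrocytes, stood at 0.23 ± 0.05 (adjusted p = 0.0825), with 0.22 in replicates 1 to 3 and 0.23 in replicates 4 to 10. The NMDA receptor genes Grin2a and Grin2b stood at 0.23 ± 0.06 and 0.35 ± 0.10 (adjusted p = 0.155 and 0.248).

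**Figure D5:**
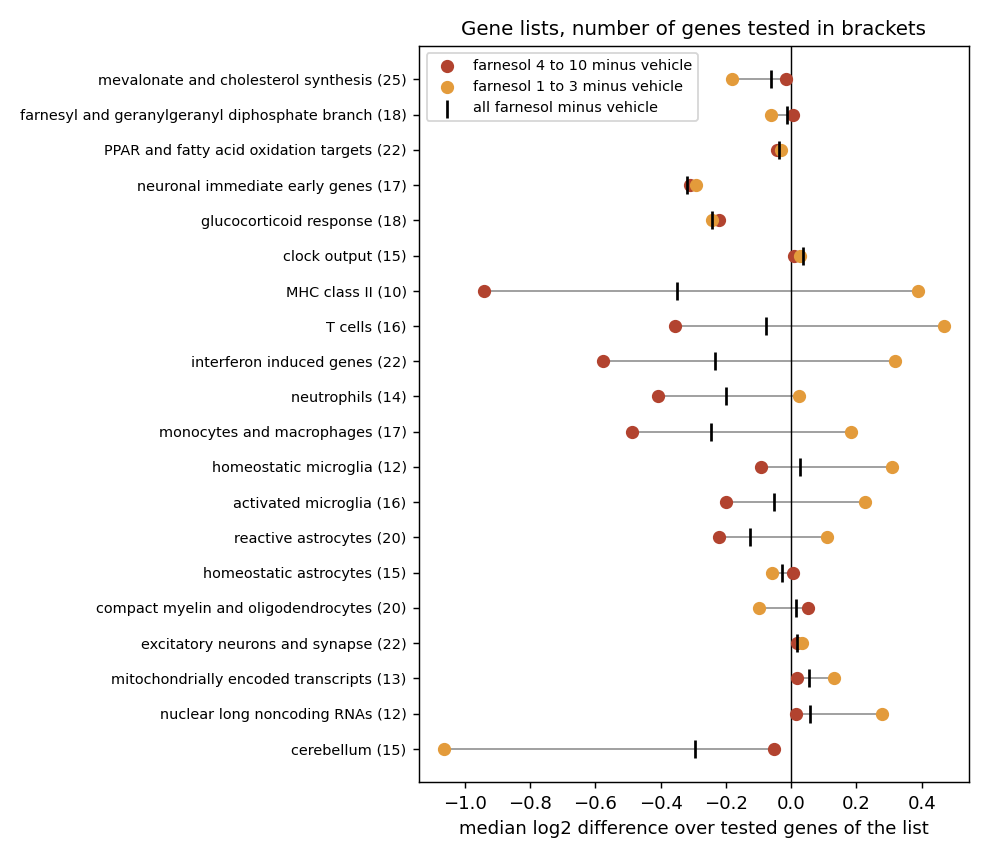
Median log2 difference from vehicle (x axis) over the tested genes of 20 lists (rows, number of genes in brackets) for farnesol replicates 4 to 10, farnesol replicates 1 to 3 and all farnesol libraries. The median over all genes was -0.006 in replicates 4 to 10, 0.005 in replicates 1 to 3 and -0.003 in all farnesol libraries. The immediate early gene points lie together near -0.3, the MHC class II points lie on both sides of 0, and the cerebellum point of replicates 1 to 3 lies at -1.06.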

How the data were processed

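Whole-brain RNA was sequenced in 36 libraries, and the authors deposited raw read counts per gene. Per the submitters' processing notes, STAR 2.5 and the mouse build mm10 were used. For the counting tool, annotation and strand setting: not given in the sources used here. Gene IDs were matched to GENCODE M21 (54495 of 54532). Genes were kept by filterByExpr (minimum count 10, minimum total 15), leaving 18438, and were scaled by TMM and tested with edgeR 4.0.16 (quasi-likelihood, Benjamini-Hochberg adjustment, R 4.3.3). All 36 libraries entered each fit, with the study's 4 groups for the main comparison and with farnesol replicates 1 to 3 and 4 to 10 as separate groups for the subsets. CPM are TMM-scaled, and ± gives the SE of a log2 difference. Named genes were those called across all farnesol libraries, up to 10 rises and 10 falls called in replicates 1 to 3, up to 5 rises and 5 falls called in replicates 4 to 10 (at least 1 CPM, unnamed loci left out), up to 3 of smallest p in each list described, and a fixed set. Members and lists were chosen with earlier results of these data known. DESeq2 1.42.0, limma 3.58.1 and sva 3.50.0 gave alternatives. The scripts were tested on simulated data. Total counts per library were 15.4 to 23.6 M in farnesol and 19.2 to 22.1 M in vehicle libraries. Some items of the gene lists are not reported here by name.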

Additional observations from a re-analysis of the deposited data

Results flagged for a closer look

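Of 94 checks for a library far from the rest of its group, 11 found one. Chance flags about 1 in 20 groups only where values are normally distributed. The checks used CPM that were not log-transformed, and several flags share a library, so the 11 cannot be set against that rate. In the farnesol group, replicate 9 held 65.7 CPM of mt-Atp6 (next 42.7) and replicate 10 held 2.87 CPM of Fdps (next 1.66). Farnesol replicate 3 was the highest of its group for Cd74 at 557 CPM, Gfap at 1015 CPM, Aif1 at 18.3 CPM and Gh at 6.85 CPM. Farnesol replicate 2 had the lowest cerebellar score of its group, the mean log2(CPM + 0.5) of 15 genes, at 3.24. In the vehicle group, replicate 4 was the highest for Cd74 at 935 CPM, Tnf at 3.33 CPM and Aif1 at 21.2 CPM, and replicate 8 for Gh at 435 CPM.

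Of 22 genes named because they were called in these libraries, 8 passed the test between farnesol replicates 4 to 10 and 1 to 3. The share over all genes was 0.396%. The 22 were called in fits that held the same farnesol libraries, so their count cannot be set against that share. CT010467.1, which defined the subsets, and Insig1, which was named later, were not among the 22. The log2 differences, replicates 4 to 10 minus 1 to 3, were 1.94 for Rn7sk, 1.81 for Lars2, 2.01 for Gm23935, 1.66 for 9530059O14Rik and 2.19 for Gm24270. They were -0.69 for Pdzd2, -0.32 for Sfpq and -0.37 for Rbm28. The subsets were divided by ribosomal RNA content, and its part in these differences was not tested.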

How the results depend on the processing

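Counts are given in the order all farnesol, replicates 1 to 3 and replicates 4 to 10 against vehicle, then replicates 4 to 10 against 1 to 3 (17, 1, 75 and 73 as reported). RLE scaling changed none by over 1.5 times. Without a filter the last count was 41, and with a minimum count of 50 the third was 47. DESeq2 gave 42, 78 and 275 for the first, second and last, and limma-voom with sample weights 114 for the third. The 1 call of limma-voom in replicates 1 to 3 was not Pdzd2. With only the libraries compared, the first, second and last were 0, 0 and 36. With 1 surrogate variable the second and last were 0 and 13. With CT010467.1 as a covariate the first was 0, and Gm24270 turned to -0.22. Both exclusions that follow were chosen after seeing the data: without libraries low in cerebellar genes the second and last were 0 and 8, and without those holding Sbp the 4 counts were 7, 5, 38 and 123. Leaving out 1 library gave 8 to 35, 0 to 3, 41 to 80 and 9 to 97 calls. The cause of these changes was not tested. The labels' replicate numbers did not pair the samples (correlations of -0.40 to 0.35, 1 of 9 highest with its own number), and with the replicate block the counts were 7, 0, 35 and 6.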
